A study of Mus musculus with 4 samples.

Results

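The genes described here were 41 developmental transcription factors outside the Hox clusters, from the Pax, Dlx, Msx, Lhx, Alx, Gsc, Otp, Barhl, Evx, En, Gbx, Vax and Emx families together with Six2, Six4 and Six5, taken by symbol from a fixed list. All 41 had 1 row in each of the 4 tables, out of 23021 rows and 21830 genes. The tables held RNA-seq expression values of mouse retina at postnatal day 12 (P12), after sorting for Cd73 (also named Nt5e), a surface enzyme that marks rods and their precursors. The 4 groups were Cd73-negative cells (Cd73N) and Cd73-positive cells (Cd73P) from wildtype retina, and the same fractions from retina with a conditional knockout of Ezh2 (Ezh2-CKO), with 1 library per group. All libraries shared the slc:ICR background strain. In the Ezh2-CKO mice floxed Ezh2 alleles were recombined by DKK3-Cre, whose Cre is expressed in retinal progenitors, and normal mice served as controls. How many P12 retinas were pooled in a library is not given in the sources used here. With 1 library per group no difference below has a replicate check, and none was tested across samples.

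Ezh2 is the main catalytic subunit of Polycomb repressive complex 2 (PRC2), which places trimethylation on lysine 27 of histone H3 (H3K27me3). In many tissues PRC2 holds developmental regulators silent outside the lineages that need them, and genes of these families, which commonly have CpG-rich promoters, are among its usual targets. Most of them encode homeodomain proteins that pattern the body axis, limbs, face, brain or eye. Pax1 and Pax9 are exceptions, since their proteins bind DNA through a paired domain and have no homeodomain, and those of Pax2, Pax5 and Pax8 carry only part of a homeodomain. In the eye, Vax1, Vax2 and Pax2 are known for the optic stalk and the ventral retina, Dlx1, Dlx2 and Barhl2 for ganglion and amacrine cells, and Lhx1 for horizontal cells.

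The bases next to the gene starts are shown for 4 members that span the responses found below. On the log scale defined below, Pax8 was the member with the largest genotype difference in Cd73N, and Lhx9 had the next largest. The order of members differs by ratio of FPKM. Six4 was higher in Ezh2-CKO in both fractions, and Otp was listed at 0 in every library. Each run is the 250 bases before the start given in the deposited tables, from mouse build mm9 (NCBIM37), 5′ to 3′ on the strand of the gene, with every CG dinucleotide in capitals.
Pax8, chr2:24331087-24331336, minus strand: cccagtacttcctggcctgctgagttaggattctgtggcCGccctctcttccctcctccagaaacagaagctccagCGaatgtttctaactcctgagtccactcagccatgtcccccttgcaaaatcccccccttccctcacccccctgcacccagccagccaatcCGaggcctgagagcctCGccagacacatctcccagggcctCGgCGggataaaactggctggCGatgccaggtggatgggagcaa
Lhx9, chr1:140744157-140744406, minus strand: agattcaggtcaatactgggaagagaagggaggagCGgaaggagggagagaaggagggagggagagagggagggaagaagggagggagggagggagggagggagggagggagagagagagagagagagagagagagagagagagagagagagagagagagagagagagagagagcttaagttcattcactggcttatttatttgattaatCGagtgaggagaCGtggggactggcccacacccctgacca
Six4, chr12:74214233-74214482, minus strand: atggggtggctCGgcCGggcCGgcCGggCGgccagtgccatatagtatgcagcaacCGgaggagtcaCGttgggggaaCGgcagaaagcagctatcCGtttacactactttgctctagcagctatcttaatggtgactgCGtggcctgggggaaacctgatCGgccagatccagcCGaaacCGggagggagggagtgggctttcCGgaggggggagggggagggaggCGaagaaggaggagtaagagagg
Otp, chr13:95645332-95645581, plus strand: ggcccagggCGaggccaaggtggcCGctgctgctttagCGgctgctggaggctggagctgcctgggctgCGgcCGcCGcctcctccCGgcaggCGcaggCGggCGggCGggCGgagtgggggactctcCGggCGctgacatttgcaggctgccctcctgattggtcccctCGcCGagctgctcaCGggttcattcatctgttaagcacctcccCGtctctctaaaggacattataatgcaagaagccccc
The letters CG occurred 7 times before Pax8, 3 times before Lhx9, 15 times before Six4 and 18 times before Otp. The Lhx9 window holds a long run of GA repeats and was the poorest of the 4 in CG.

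CpG content was therefore measured in the same window of all members that could be placed. A window was counted as island-like when its GC content was at least 50% and its CpG observed-over-expected ratio at least 0.6. Of 40 members placed, 25 (62.5%) were island-like, against 45.4% of 19829 protein-coding genes. The median ratio was 0.741 over the members and 0.588 over all genes. Among the 6 members that were higher in Cd73N Ezh2-CKO (below), 3 were island-like, with ratios of 0.919 (Vax1), 0.764 (Dlx1) and 0.700 (Six4), and 3 were not, with 0.546 (Six5), 0.329 (Pax8) and 0.299 (Lhx9). Those 6 had a median of 0.623, and the other 34 had a median of 0.770. Alx1 was not placed because its strand could not be assigned. The start in the tables is the outermost start of a gene, so that an internal promoter lies outside this window.

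**Figure D1:**
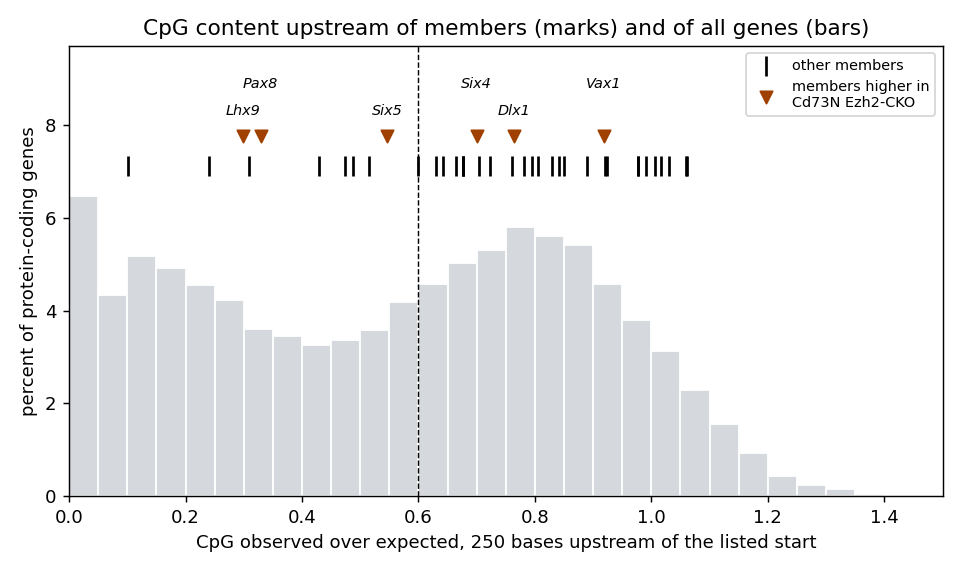
CpG observed-over-expected ratio (no unit) in the 250 bases upstream of the listed start, as the percent of protein-coding genes per bin (bars), with other members as ticks, the 6 members higher in Cd73N Ezh2-CKO as triangles, and a dashed line at 0.6. Most ticks lie right of 0.6, and the triangles lie on both sides, from 0.299 for Lhx9 to 0.919 for Vax1.

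The labels were checked on Nt5e and Ezh2 before any difference was read. Nt5e, which encodes Cd73, was 0.844 and 0.609 FPKM in the Cd73N libraries of WT and Ezh2-CKO, and 125 and 123 FPKM in the Cd73P libraries. FPKM is the number of sequenced fragments scaled by exon length and by library size. Ezh2 was 14.1 FPKM in Cd73N WT and 15.9 in the Cd73N library labelled Ezh2-CKO, so that its level was not lower there, and it was 5.38 and 3.45 FPKM in Cd73P. A deletion of exons can leave the rest of a transcript, and values per gene cannot show this. The genotypes also differed in sex-linked transcripts, a check added after values were seen: 4 Y-linked genes (Ddx3y, Eif2s3y, Kdm5d and Uty) summed to 26.8 and 27.9 FPKM in the WT libraries and to 0.716 and 0.496 in the Ezh2-CKO libraries. Xist, an X-linked transcript of female cells, was 52.2 FPKM in Cd73N WT, 47.0 in Cd73P WT, 240 in Cd73N Ezh2-CKO and 95.6 in Cd73P Ezh2-CKO. The WT libraries thus held Xist as well as Y-linked transcripts. Genotype and the sex of the pooled animals therefore cannot be told apart. Library depth, read from the deposited bounds of 6198 genes, lay between 1 and 1.17 times that of Cd73N WT.

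Most of the 41 factors were close to silent in these retinas. In Cd73N WT 1 member (2.44%) reached 1 FPKM, against 56.0% of all genes, and in Cd73P WT 2 members (4.88%) did, against 48.1%. In the Ezh2-CKO libraries 5 members (12.2%) reached 1 FPKM in Cd73N and 1 (2.44%) in Cd73P, against 58.5% and 47.5% of all genes. In Cd73N 10 members (24.4%) were listed at 0 in WT and 6 (14.6%) in Ezh2-CKO, against 18.9% and 16.3% of all genes. In Cd73P 17 members (41.5%) were listed at 0 in WT and 11 (26.8%) in Ezh2-CKO, against 22.5% and 21.7%. Otp, Evx1 and Lhx8, which serve neurons of the hypothalamus, the spinal cord and the basal forebrain, were listed at 0 in all 4. A further 20 members stayed under 0.1 FPKM in every library, and 35 of the 41 stayed under 1.

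Vax2, which marks ventral retina, was the exception among the members. It was 17.5 FPKM in Cd73N WT, 19.3 in Cd73N Ezh2-CKO, 20.7 in Cd73P WT and 45.0 in Cd73P Ezh2-CKO, and made up 78.6%, 44.8%, 86.2% and 94.4% of the summed FPKM of all members. The other 40 members together summed to 4.74 FPKM in Cd73N WT, 23.8 in Cd73N Ezh2-CKO, 3.32 in Cd73P WT and 2.66 in Cd73P Ezh2-CKO. The library that stood apart in that sum was Cd73N Ezh2-CKO. Single genes weighed heavily on these sums. Pax8 alone was 10.2 of the 23.8 FPKM in Cd73N Ezh2-CKO. Pax7 was 2.38 of the 3.32 FPKM in Cd73P WT but 0.031 of the 2.66 in Cd73P Ezh2-CKO, so the lower Cd73P sum in Ezh2-CKO does not describe the members as a group.

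**Figure D2:**
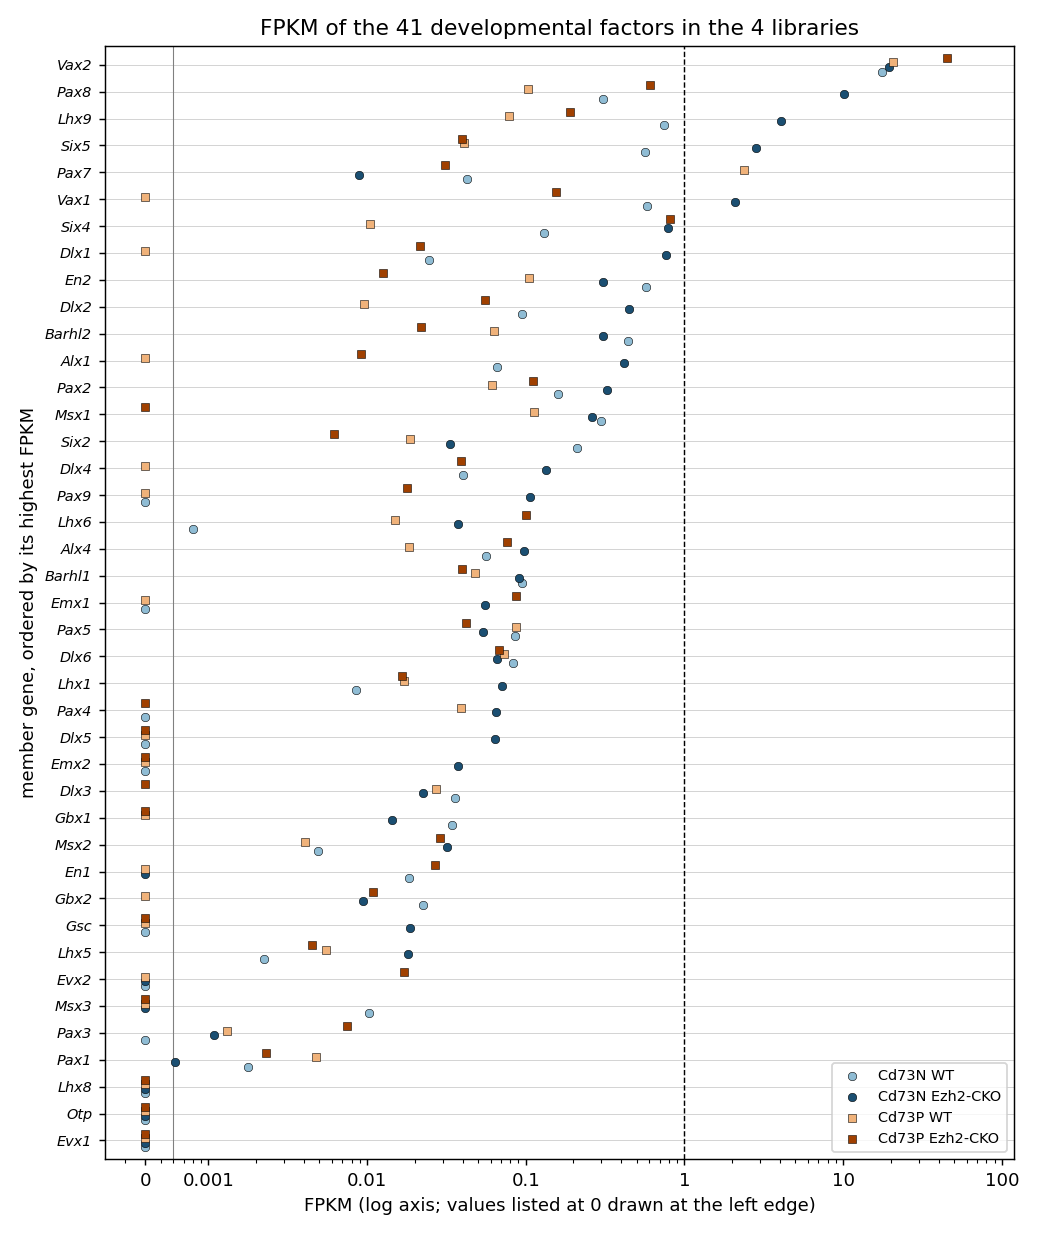
FPKM (log axis) of each of the 41 members in the 4 libraries, with values listed at 0 drawn at the left edge and a dashed line at 1 FPKM; circles are Cd73N and squares Cd73P, pale for WT and dark for Ezh2-CKO. Vax2 lies right of the line in all 4 libraries, and 35 members lie left of it throughout.

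Of the 2 genotype comparisons, that in Cd73N held more members higher in Ezh2-CKO, as it did over all genes. By the count defined next, 7.18% of all genes were higher in Cd73N and 2.26% in Cd73P. A member was counted as higher or lower when it differed by at least 1.5-fold on log2(FPKM + 1), a scale that understates the change of genes with low values. In the Cd73N library labelled Ezh2-CKO 6 of 41 members (14.6%) were higher than in Cd73N WT and 0 were lower, against 7.18% higher and 1.71% lower over all 21704 genes compared. The 6 were Pax8, Lhx9, Six5, Vax1, Dlx1 and Six4, and each was under 1 FPKM in WT. Among all genes under 1 FPKM in Cd73N WT 4.64% were higher, and among the 40 such members 15%. The median difference was 0.03 over the members and 0 over all genes, but most members were so low that a pseudocount of 1 holds their differences near 0; with a pseudocount of 0.1 the median over the members was 0.21. With that pseudocount 15 members were higher and 2 lower, and with 5, 2 were higher. A smaller pseudocount adds calls among low genes of any kind. The median and counts at these other pseudocounts were not computed over all genes, so they cannot be read as particular to the members. As a standard error (SE) is given below what the deposited bounds imply, which covers counting error only.

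The roles of these 6 genes lie in different organs. Pax8, on chromosome 2 (24276080 to 24331086, minus strand, 13 exon blocks), is known for thyroid, kidney and inner ear. It was 0.307 FPKM in Cd73N WT, 10.2 in Cd73N Ezh2-CKO, 0.103 in Cd73P WT and 0.607 in Cd73P Ezh2-CKO, so that Cd73N Ezh2-CKO was far above the others. The Cd73N difference was 3.10 ± 0.07 (SE) on the log2 scale, a 33.2-fold ratio of FPKM. The bounds correspond to about 35.7 fragments in WT and 790 in Ezh2-CKO. Pax8 thus had the most fragments of the 6 in Ezh2-CKO, though Lhx9 (74.0), Six5 (61.1) and Six4 (36.9) had more in WT.

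Six4 and Six5 encode related homeodomain proteins that act with Eya proteins in muscle and other developing organs. Six5, on chromosome 7 (19679893 to 19683694, plus strand), was 0.562 FPKM in Cd73N WT, 2.85 in Cd73N Ezh2-CKO, 0.041 in Cd73P WT and 0.040 in Cd73P Ezh2-CKO. Its Cd73N difference was 1.30 ± 0.09 (SE), and the Cd73P libraries were alike and low. Six4, on chromosome 12 (74201246 to 74214232, minus strand), was 0.130 FPKM in Cd73N WT, 0.791 in Cd73N Ezh2-CKO, 0.011 in Cd73P WT and 0.814 in Cd73P Ezh2-CKO. Both Ezh2-CKO libraries were above both WT libraries, by 0.66 ± 0.05 (SE) in Cd73N and 0.84 ± 0.05 in Cd73P. Six2, a related factor of kidney progenitors, went the other way in Cd73N at a low level, from 0.210 FPKM in WT to 0.033 in Ezh2-CKO, and did not pass the threshold.

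Of the members, 8 have known roles in amacrine, ganglion or horizontal cells (Barhl1, Barhl2, Dlx1, Dlx2, Gbx2, Lhx1, Lhx5 and Lhx9). In Cd73N Ezh2-CKO 2 of these 8 were higher and 0 were lower, against 7.18% and 1.71% of all genes. A list this short gives only a coarse share. Lhx9, a LIM-homeodomain gene of the gonad, limb, forebrain and retina on chromosome 1 (140721763 to 140744156, minus strand), was 0.749 FPKM in Cd73N WT, 4.06 in Cd73N Ezh2-CKO, 0.078 in Cd73P WT and 0.190 in Cd73P Ezh2-CKO. Its Cd73N difference was 1.53 ± 0.09 (SE), a 5.42-fold ratio of FPKM. Dlx1, on chromosome 2 (71367502 to 71372037, plus strand), was 0.025 FPKM in Cd73N WT, 0.765 in Cd73N Ezh2-CKO, listed at 0 in Cd73P WT and 0.022 in Cd73P Ezh2-CKO. Its Cd73N difference was 0.78 ± 0.06 (SE), from about 3.62 implied fragments to 103. The ratio of FPKM was 31.2-fold, above that of Lhx9, though it rests on few fragments in WT. With a pseudocount of 0.1 the Cd73N differences were 2.80 for Dlx1 and 2.29 for Lhx9. With a pseudocount of 5 they were 0.20 for Dlx1 and 0.66 for Lhx9. Barhl2 was close between genotypes, with 0.440 FPKM in Cd73N WT and 0.306 in Cd73N Ezh2-CKO, and Lhx1, Lhx5, Gbx2 and Barhl1 stayed under 0.1 FPKM in every library.

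Of the 3 optic stalk, dorsoventral or astrocyte factors (Pax2, Vax1 and Vax2), 1 was higher in Cd73N Ezh2-CKO (all genes, 7.18%). Vax1, on chromosome 19 (59240677 to 59244519, minus strand), was 0.583 FPKM in Cd73N WT, 2.08 in Cd73N Ezh2-CKO, listed at 0 in Cd73P WT and 0.155 in Cd73P Ezh2-CKO. Its Cd73N difference was 0.96 ± 0.15 (SE), the least precise of the 6. Pax2 was 0.161 FPKM in Cd73N WT and 0.326 in Cd73N Ezh2-CKO, and Vax2 differed by 0.14 ± 0.08 (SE) there.

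Just inside the threshold of 0.585 lay Six4 at 0.66, and just outside lay Alx1 at 0.41 and Dlx2 at 0.40. Alx1, a gene of craniofacial cartilage, was 0.066 FPKM in Cd73N WT and 0.418 in Cd73N Ezh2-CKO. Dlx2, the neighbour of Dlx1, was 0.095 and 0.445 FPKM in the same libraries. A count that asks only that the deposited bounds of a pair of libraries do not overlap, chosen after the values were seen, gave 12 members higher and 2 lower in Cd73N Ezh2-CKO, against 20.6% and 19.4% of all genes. The 12 were the 6 above with Pax2, Pax9, Dlx2, Lhx1, Alx1 and Emx2, and the 2 were Six2 and En2.

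**Figure D3:**
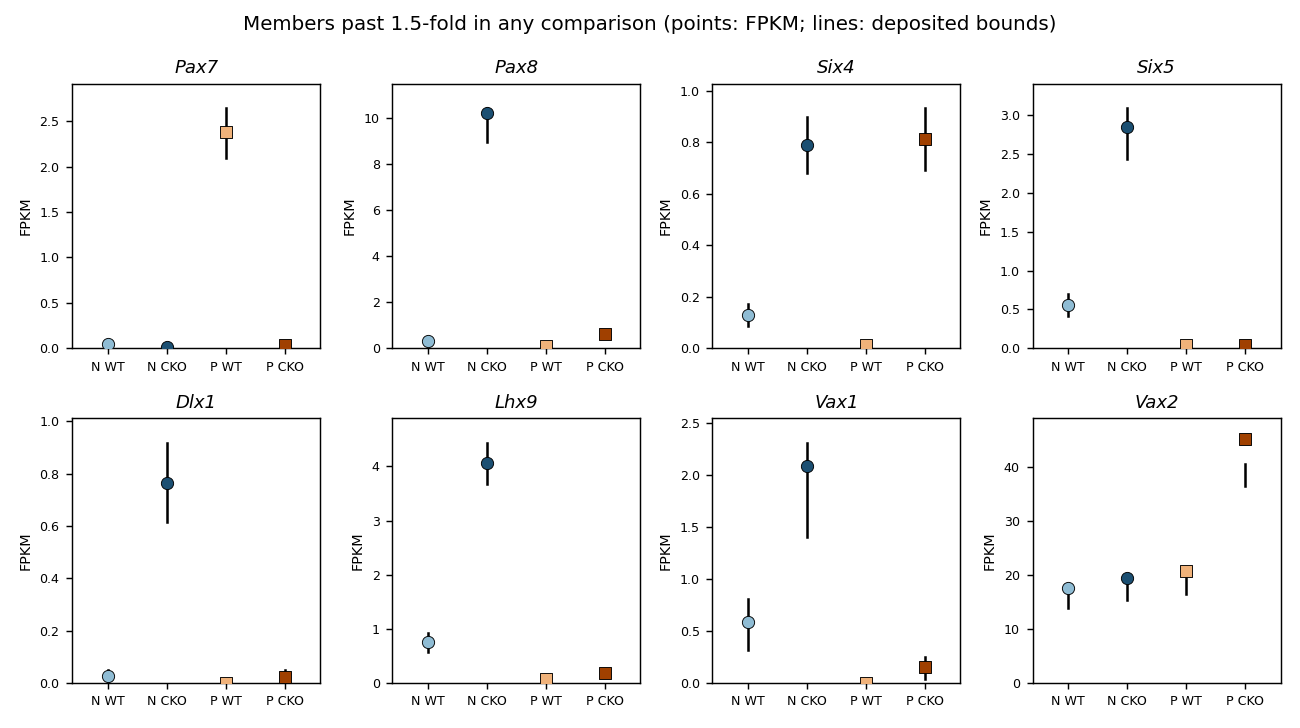
FPKM (linear axes, each from 0) of the 8 members that passed 1.5-fold on log2(FPKM + 1) in any comparison, in Cd73N (N) and Cd73P (P) of WT and Ezh2-CKO (CKO), with the deposited bounds as vertical lines. For Pax8, Six5, Dlx1, Lhx9 and Vax1 the N CKO point stands above the other 3, for Six4 both CKO points stand high, and for Pax7 the P WT point does; each Vax2 point lies above its own upper bound.

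In Cd73P, the rod fraction, 2 members were higher in Ezh2-CKO and 1 was lower, against 2.26% and 2.39% of all 21705 genes. Of the 39 members under 1 FPKM in Cd73P WT 1 was higher, against 1.22% of all such genes. The median difference was 0 over the members and over all genes. The higher members were Six4, described above, and Vax2, whose difference was 1.08 ± 0.06 (SE), a 2.17-fold ratio of FPKM. The FPKM of Vax2 exceeded its own upper bound in all 4 libraries, so that its error is not well described by those bounds. Pax8 lay just under the threshold at 0.54 ± 0.08 (SE), from about 13.5 implied fragments in WT to 62.0 in Ezh2-CKO. By bounds that do not overlap, 6 members were higher (Pax8, Six4, Alx4, Vax1, Vax2 and Emx1) and 3 were lower (Pax7, Msx1 and En2), against 10.6% and 16.3% of all genes.

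The lower member was Pax7, a factor of muscle satellite cells and neural crest on chromosome 4 (139293996 to 139388883, minus strand). It was 0.042 FPKM in Cd73N WT, 0.009 in Cd73N Ezh2-CKO, 2.38 in Cd73P WT and 0.031 in Cd73P Ezh2-CKO, so that a single library stood high. The Cd73P difference was -1.71 ± 0.06 (SE), from about 299 implied fragments in WT to 7.84 in Ezh2-CKO. Markers of other cells than rods also differed between the Cd73P libraries, and in both directions. In Ezh2-CKO 7 of 8 bipolar markers were lower (sums of 183 and 62.9 FPKM), as were 6 of 6 cone markers (246 and 112 FPKM) and 1 of 9 amacrine markers, Gad1. Of 8 Müller glia markers 7 were higher (90.3 and 207 FPKM). Of 6 microglia markers 0 passed the threshold (15.5 and 19.9 FPKM). Of 6 endothelium and pericyte markers 1 was higher and 2 were lower. Of 6 retinal pigment epithelium and ciliary body markers 0 were higher and 2, Rpe65 and Dct, were lower (48.1 and 40.9 FPKM). In WT 5 of these 6 were higher in Cd73P than in Cd73N, where their sum was 8.46 FPKM. Skeletal muscle markers, 6 in all, summed to 6.51 and 6.31 FPKM, with Myf5, the satellite cell gene of that list, listed at 0 in all 4 libraries. The part of other cells in the Pax7 value was not tested.

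**Figure D4:**
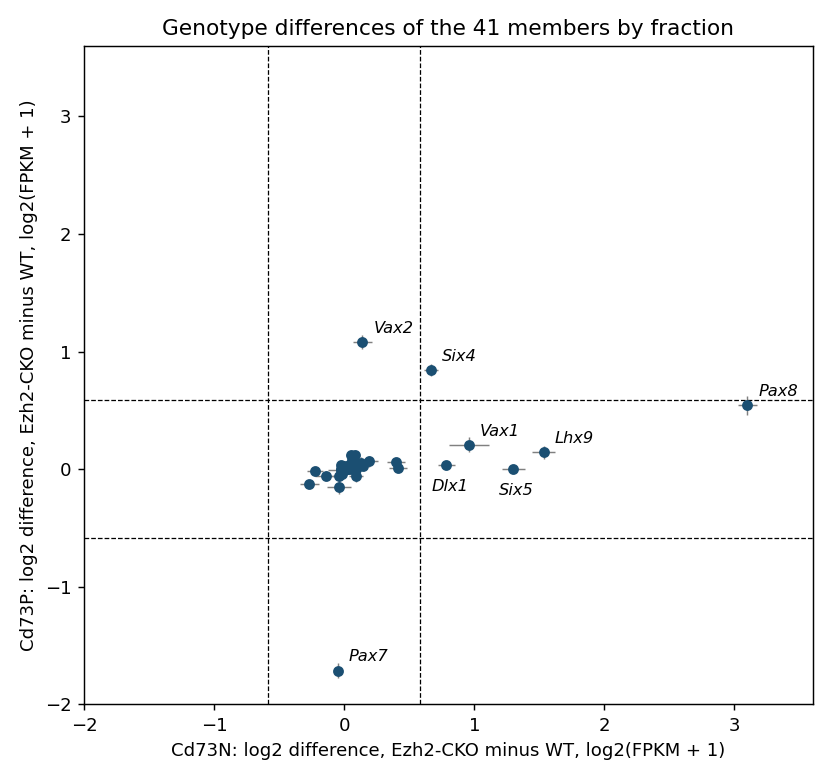
Difference between Ezh2-CKO and WT on log2(FPKM + 1) for the 41 members, in Cd73N (horizontal axis) and Cd73P (vertical axis), with SE from the deposited bounds as bars and dashed lines at 1.5-fold. Pax8, Lhx9, Six5, Vax1 and Dlx1 lie right of the line in Cd73N without passing it in Cd73P, Six4 lies past both, Vax2 is past it in Cd73P, and Pax7 lies at -1.71 in Cd73P.

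Cd73P and Cd73N were next set against each other in WT and in Ezh2-CKO. In WT 1 member had more FPKM in Cd73P and 3 had less, against 9.07% and 27.9% of all 21703 genes. Pax7 was the member higher in Cd73P, by 1.70 ± 0.06 (SE). Lhx9, Vax1 and Six5 were lower in Cd73P, at -0.70, -0.66 and -0.59, and Six5 lay at the threshold itself and short of it, at -0.57, with either alternative scaling. In Ezh2-CKO 1 member had more FPKM in Cd73P and 5 had less, against 8.4% and 29.1% of all 21702 genes. Vax2 was the member higher in Cd73P, by 1.18 ± 0.06 (SE). Pax8, Lhx9, Six5, Vax1 and Dlx1 were lower in Cd73P, at -2.80, -2.09, -1.89, -1.42 and -0.79. These comparisons share libraries with the genotype comparisons, so they are the same values seen from the other side.

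Expressed as a percent of the Cd73N level in Ezh2-CKO, Cd73P held 5.96% for Pax8, 4.68% for Lhx9, 1.39% for Six5, 7.44% for Vax1 and 2.84% for Dlx1. Summed markers gave 3.93% for Müller glia, 3.94% for ganglion cells, 5.30% for bipolar cells and 2.16% for cones. Astrocyte and microglia sums kept 15.4% and 18.1%, and the amacrine sum 137%, with 1 of 9 amacrine markers higher and 5 lower in Cd73P. The 5 members had been chosen for a high value in Cd73N Ezh2-CKO, the denominator here, so a low percent is partly fixed by that choice. In WT, where they were not chosen, Cd73P held 33.6% of the Cd73N level for Pax8, 10.5% for Lhx9 and 7.31% for Six5, with Vax1 and Dlx1 listed at 0 in Cd73P, beside 9.07% for Müller glia, 16.4% for ganglion cells, 9.14% for bipolar cells and 6.64% for cones. Six4 stood apart with 103%, and Vax2 with 233%. Whether carried-over cells account for the Cd73P values of the 5 was not tested.

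**Figure D5:**
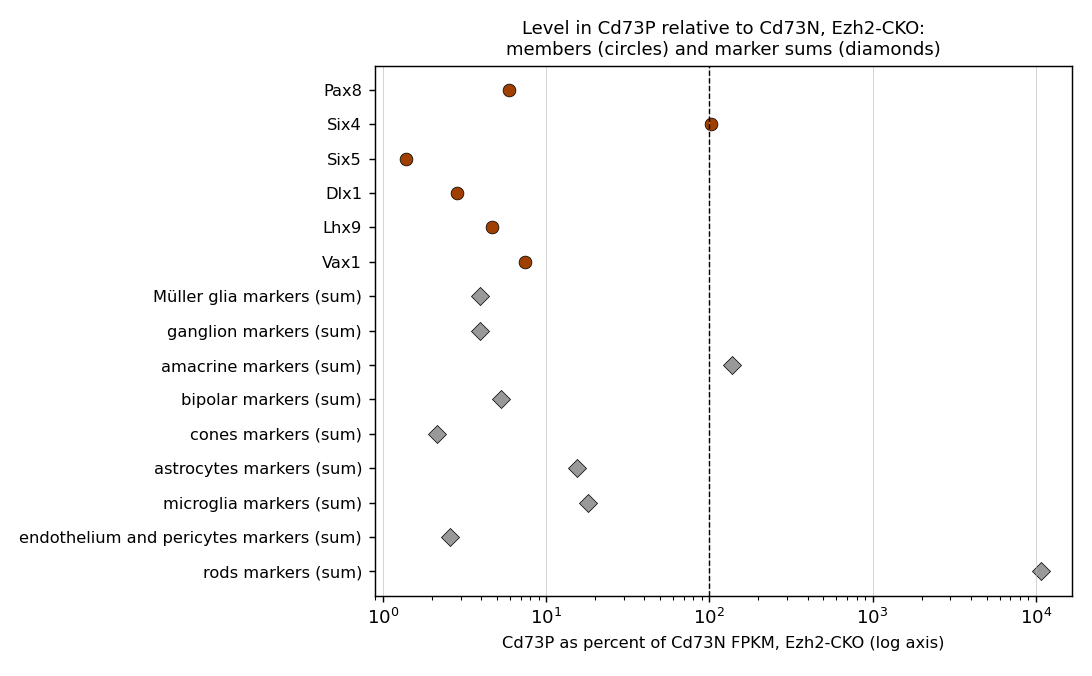
Cd73P FPKM as a percent of Cd73N FPKM in the Ezh2-CKO libraries (log axis) for the 6 members higher in Cd73N Ezh2-CKO (circles) and for summed markers of 9 cell types (diamonds), with a dashed line where the fractions are equal. Pax8, Six5, Dlx1, Lhx9 and Vax1 lie between 1.39% and 7.44%, and Six4 lies at 103%.

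Cell type markers in Cd73N also differed between the genotypes. All 8 Müller glia markers were higher in Cd73N Ezh2-CKO, and their sum was 996 FPKM in WT and 5273 in Ezh2-CKO. In Cd73P 7 of the 8 were higher, with sums of 90.3 and 207 FPKM. The 7 ganglion cell markers summed to 14.7 FPKM in Cd73N WT and 41.2 in Cd73N Ezh2-CKO, with 2 higher and 1 lower, and Thy1 made most of the difference (6.52 and 30.3 FPKM). Of 9 amacrine markers 1 was higher (sums of 13.0 and 16.2 FPKM). Of 6 horizontal cell markers 0 were higher; their sum, 73.7 and 73.1 FPKM, was nearly all Sept4, and Calb1 was 0.421 and 1.08 FPKM. The horizontal list includes the member Lhx1, and Gja10 was listed at 0 in Cd73N WT. Of 5 astrocyte markers, which include the member Pax2, 3 were higher, with sums of 9.22 and 25.1 FPKM. Of 8 bipolar markers 4 were lower, with sums of 2001 and 1188 FPKM. All 6 rod markers were lower too, with sums of 192 and 81.8 FPKM. Of 6 cone markers 2 were higher (3710 and 5179 FPKM), and of 6 microglia markers 3 were higher (75.7 and 110 FPKM). Of 6 endothelium and pericyte markers 1 was higher (220 and 324 FPKM). Of 6 mesenchyme markers 1 was higher, with sums of 13.9 and 15.7 FPKM. The part of these shifts in the values of Pax8, Lhx9, Six5, Vax1, Dlx1 and Six4 was not tested. In bulk samples, more cells of a type and more RNA per cell cannot be told apart.

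Vax2 lies beside noncoding transcripts that were also highest in Cd73P Ezh2-CKO. Vax2, on chromosome 6 (83661258 to 83688298, plus strand), overlaps the row of Vax2os2 by 938 bases and starts 331 bases from Vax2os1, a long noncoding RNA on the opposite strand (83650151 to 83660926). Vax2os2 was 0.705 FPKM in Cd73N WT, 1.60 in Cd73N Ezh2-CKO, 8.02 in Cd73P WT and 26.8 in Cd73P Ezh2-CKO. Vax2os1, named after its values were seen, was 2.27, 5.70, 33.7 and 76.8 FPKM in the same order. Both rows followed the order of Vax2 over the 4 libraries. In WT, though, Vax2os1 was 14.8-fold and Vax2os2 11.4-fold higher in Cd73P than in Cd73N, whereas Vax2 was 17.5 and 20.7 FPKM. The library kit does not mark strand, so reads in the overlap of Vax2 and Vax2os2 cannot be assigned to either.

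Among the linked family pairs, Dlx1 and Dlx2, 9427 bases apart on chromosome 2, were both highest in Cd73N Ezh2-CKO. Dlx1as, which overlaps Dlx1 by 3343 bases, was 0.167 FPKM there and at most 0.011 FPKM in the other 3 libraries, and its reads cannot be separated from those of Dlx1. Dlx3 and Dlx4 stayed at or under 0.134 FPKM, and Dlx5 and Dlx6 stayed under 0.1 FPKM. The rest of the families were low. Msx1 was 0.300 and 0.261 FPKM in Cd73N of WT and Ezh2-CKO, 0.113 in Cd73P WT and listed at 0 in Cd73P Ezh2-CKO. En2, a midbrain and hindbrain gene, was 0.576 FPKM in Cd73N WT, 0.309 in Cd73N Ezh2-CKO, 0.105 in Cd73P WT and 0.013 in Cd73P Ezh2-CKO, lower in Ezh2-CKO in both fractions without passing the threshold. That 0.576 FPKM was the highest value of any of the 33 members that passed the threshold in 0 of the 4 comparisons.

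Other homeobox genes and the PRC2 genes give the setting. Of 30 homeobox genes that retinal cells use, 4 were higher and 8 lower in Cd73N Ezh2-CKO (all genes, 7.18% and 1.71%), and 0 were higher and 9 lower in Cd73P Ezh2-CKO (all genes, 2.26% and 2.39%), where the bipolar and cone markers given above were lower too. Rax, with the largest difference of the 4 higher in Cd73N, was 39.4 FPKM in Cd73N WT and 95.4 in Cd73N Ezh2-CKO. Among the lower ones, Irx6, a bipolar cell factor, was 34.7 FPKM in Cd73N WT and 4.61 in Cd73N Ezh2-CKO. Isl1, used by bipolar, amacrine and ganglion cells, was 12.3 FPKM in Cd73P WT and 2.52 in Cd73P Ezh2-CKO. Of 39 Hox genes, which are also usual PRC2 targets, 2 were higher in Cd73N Ezh2-CKO (all genes, 7.18%), 0 were lower and 0 passed the threshold in Cd73P. The larger of these was Hoxc4, with 0.012 FPKM in Cd73N WT and 2.04 in Cd73N Ezh2-CKO. Of 11 PRC2 genes 0 passed the threshold between genotypes in either fraction.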

How the data were processed

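Libraries were poly(A)-selected, made with random primers and without strand marking, and read as single 36-base reads. Per the labels and the study's methods, the authors aligned reads to mm9 with TopHat2 2.0.8b (at most 50 hits per read) and computed FPKM with Cufflinks 2.1.1 (bcl2fastq 1.8.4 also appears in the submitters' processing notes). The deposited values are FPKM per gene with lower and upper bounds and a status. No fragment counts were used, so depth is known only relatively, from the bounds.

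The 4 tables list genes in different orders and were joined by symbol and locus. Values without OK status (294 to 302 rows per library) were left out of comparisons, as were 728 small RNA symbols. For 235 symbols with several rows the rows were summed. Differences were taken on log2(FPKM + 1) from the deposited FPKM, with 1.5-fold as threshold. The study used 1.5-fold on the expression values themselves, so the added 1 makes the threshold stricter here for low genes. SE was the width of the bounds divided by 4, carried to the log scale. Where the lower bound was 0, SE came from the distance between FPKM and the upper bound if that made it larger. Implied fragments were derived from the same SE. No p-value was computed, since there was 1 library per group. The calling step was tested on simulated data. Gene strands and sequence came from GENCODE vM1 on NCBIM37; 9404 of 19832 gene starts matched the tables exactly.

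Every member at 1 FPKM or more, or past the threshold in any comparison, is named with its value in each library; En2, Msx1, Six2, Alx1, Dlx2, Pax2, Barhl2, Thy1, Sept4, Myf5 and the neighbouring genes were added after their values were seen. Members and lists were chosen with earlier results of these data known. Alternatives covered the pseudocount, threshold, low-value filter, scaling and overlapping genes. Python 3.11.15, pandas 2.3.3, numpy 2.4.6 and matplotlib 3.10.9 were used.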

Additional observations from a re-analysis of the deposited data

How the results depend on the processing

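Each group had 1 library, so no library could be left out, and no paired fit was run, since with 1 Cd73N and 1 Cd73P library per genotype its error would be the difference between the fractions themselves. The values are low, so the counts depend on the pseudocount. The alternative counts and medians below cover the members only and have no share over all genes beside them. In Cd73N the 6 higher members became 15 with a pseudocount of 0.1 (with 2 lower), 2 with 5, 3 at a 2-fold threshold and 0 when both libraries had to reach 1 FPKM with no pseudocount; the median of 0.03 became 0.21 with a pseudocount of 0.1 and 1.30 over members at 1 FPKM or more in either library, and the mean was 0.23. In Cd73P the 2 higher members became 7 with a pseudocount of 0.1, and 1 with 5, at 2-fold, with either filter at 1 FPKM, or without Vax2, which both the rule on overlapping genes and the one added after the values were seen, on values above their own bound, remove; the 1 lower member became 3 with a pseudocount of 0.1, and 0 with 5 or with both libraries at 1 FPKM. The Cd73P mean was 0.031, and the median over filtered members was -0.31. In WT the 1 member higher in Cd73P became 2 when libraries were scaled to equal sums, and 0 with a pseudocount of 5 or both libraries at 1 FPKM; the 3 higher in Cd73N became 12 with 0.1, and 0 with 5, at 2-fold or with either filter. The WT median of -0.01 became -0.10 with 0.1, the mean was -0.059, and over filtered members the median reversed to 0.96. In Ezh2-CKO the 1 member higher in Cd73P became 0 without Vax2, and the 5 higher in Cd73N became 15 with 0.1, 3 with 5 and 0 with both libraries at 1 FPKM; the median of -0.03 became -0.25 with 0.1 and -1.89 over filtered members, and the mean was -0.26. With a minimum of 0.5 FPKM 5 members reached it in Cd73N WT and 3 in Cd73P Ezh2-CKO, and equal-sum scaling gave 2 at 1 FPKM in Cd73P Ezh2-CKO. Summed FPKM under equal-sum scaling was 47.9 in Cd73N Ezh2-CKO, 32.3 in Cd73P WT and 61.5 in Cd73P Ezh2-CKO; without Vax2 the sums were 4.74, 23.8, 3.32 and 2.66. Equal-sum scaling shifts the fraction comparisons by 0.43 in WT and 0.22 in Ezh2-CKO (median scaling by 0.34 and 0.27), and the genotype comparisons by 0.15 in Cd73N and -0.06 in Cd73P. Of the single-gene values 29 stayed within the counting error, 47 moved and 0 reversed.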

Other observations

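Within 50000 bases of the members lay 69 other genes. In Cd73N Ezh2-CKO 6 of them were higher than in WT by the same threshold and 1 was lower (all genes, 7.18% and 1.71%), and in Cd73P 2 were higher and 3 lower (2.26% and 2.39%), so the counts lie near those of all genes. Beside Vax2os1 and Vax2os2, described above, the following were picked after their values were seen. Sfxn5, 8587 bases from Emx1, was 6.84 FPKM in Cd73N WT and 32.5 in Cd73N Ezh2-CKO, while Emx1 was listed at 0 and 0.056 FPKM. Slc25a21, 1403 bases from Pax9, was 0.024 and 0.941 FPKM, while Pax9, a gene of the skeleton, teeth and thymus, was listed at 0 and 0.107 FPKM. Cnpy1, 33296 bases from En2, was 0.073 and 0.660 FPKM, while En2 was 0.576 and 0.309 FPKM, the opposite direction. Psd4, 11830 bases from Pax8, was 0.130 and 0.689 FPKM, a difference of 0.58 that fell just short of the threshold. Mnat1, 10471 bases from Six4, was 16.2 and 16.5 FPKM in Cd73N and 9.36 and 12.4 in Cd73P. The neighbours counted as lower were Aatf in both fractions, and Metap1d and Itga3 in Cd73P. Aatf, 5877 bases from Lhx1, was 11.8 and 6.50 FPKM in Cd73N and 9.98 and 4.37 in Cd73P. In Cd73P of WT and Ezh2-CKO Metap1d, 4253 bases from Dlx1, was 14.9 and 7.61 FPKM. Itga3, 43402 bases from Dlx3, was 5.17 and 1.58 FPKM there.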
